A study of Mus musculus with 6 samples.

Results

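The genes described here make, fold, carry or regulate the proteins of mucous surfaces, and were followed in the pancreas of mice that lack the chloride and bicarbonate channel CFTR. The members are every probe set that the platform annotation assigns to Agr2, Tff1, Tff2, Tff3, Muc1, Dmbt1, Pigr, Klf4, Klf5 or Sprr2i, which gave 13 of the 12488 probe sets, for all 10 genes of 8252 named on the platform. These genes were picked from earlier results of the same arrays, in which their CF minus control differences were known, so those differences are given as a description and no test of them is offered as evidence. Total RNA of the pancreas was hybridised to 6 one-colour oligonucleotide arrays, each holding the RNA of a single mouse. The CF group holds 3 CFTR-/- mice, aged 57, 56 and 58 days in replicates 1, 2 and 3. The control group holds 3 CFTR+/+ mice, aged 57, 56 and 57 days in replicates 1, 2 and 3. All 6 mice were gastrin+/- males of a background that was 95% black6 and 5% 129Sv, and all were fed Peptamen, a liquid diet that guards against intestinal obstruction, from day 10 of age. Every comparison therefore holds in mice that also lack 1 gastrin allele and live on a special diet. The label of control replicate 1 speaks of the entire pancreas and the others of the pancreas.

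Mucous epithelia cover themselves with a gel of secreted mucins, large glycoproteins that are folded and cross-linked by disulfide bonds in the endoplasmic reticulum. Small trefoil peptides are secreted with the mucins and help the epithelium to close over wounds, while scavenger receptor proteins and transported antibodies bind microbes in the lumen. In cystic fibrosis the loss of CFTR leaves these secretions short of bicarbonate and water, and the ducts of the pancreas can fill with protein and mucus. In mice without Cftr the pancreas is affected less than in patients.

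Values are intensities on a linear scale as deposited. Differences are CF minus control on a log2 scale, with a floor at 47.6, the pooled 20th percentile. A probe set was tested if at least 3 of 6 arrays exceeded 140.2, the pooled 40th percentile, which 7739 probe sets did. Array medians lay between 207.8 and 234.4 and array maxima between 92020 and 135426. Of the 13 member probe sets, 10 passed this filter, covering 9 of the 10 genes. The tissue label held on all arrays: the 4 acinar enzyme genes measured, Ctrb1, Cel, Cela1 and Cela2a, summed to 314300 to 349600 in CF and 335600 to 462400 in controls. In whole tissue, fewer cells of a type and less RNA per cell cannot be told apart. Precision is limited by having 3 arrays in each group.

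Of the 10 tested member probe sets, 2 of the widest differences were higher in CF, those of the folding enzyme Agr2 and the antibody receptor Pigr, and 2 lower, those of the transcription factor Klf4 and the barrier protein Sprr2i. In each of these 4 the CF values lay wholly on 1 side of the control values and the means differed 1.92-fold to 2.27-fold. The abundant secreted and surface proteins Tff2, Muc1 and Dmbt1 differed by at most 0.21 in either direction. None of the 10 passed an adjusted p of 0.05 in limma (0 of 10, against 0.0646% of all probe sets tested), with adjusted p-values from 0.152 to 0.988. At an unadjusted p under 0.05 there were 4 of 10 (all probe sets, 7.38%), 2 higher (all, 4.26%) and 2 lower (all, 3.11%). In 5 of 10 the groups did not overlap (all, 13%), with 2 higher (all, 7.37%) and 3 lower (all, 5.62%). Since the genes were chosen with this comparison in view, nothing is read from these shares. Over the 10 probe sets 5 were higher and 5 lower in CF, with a median difference of 0.03, beside a median of 0.001 over all 7739.

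**Figure D1:**
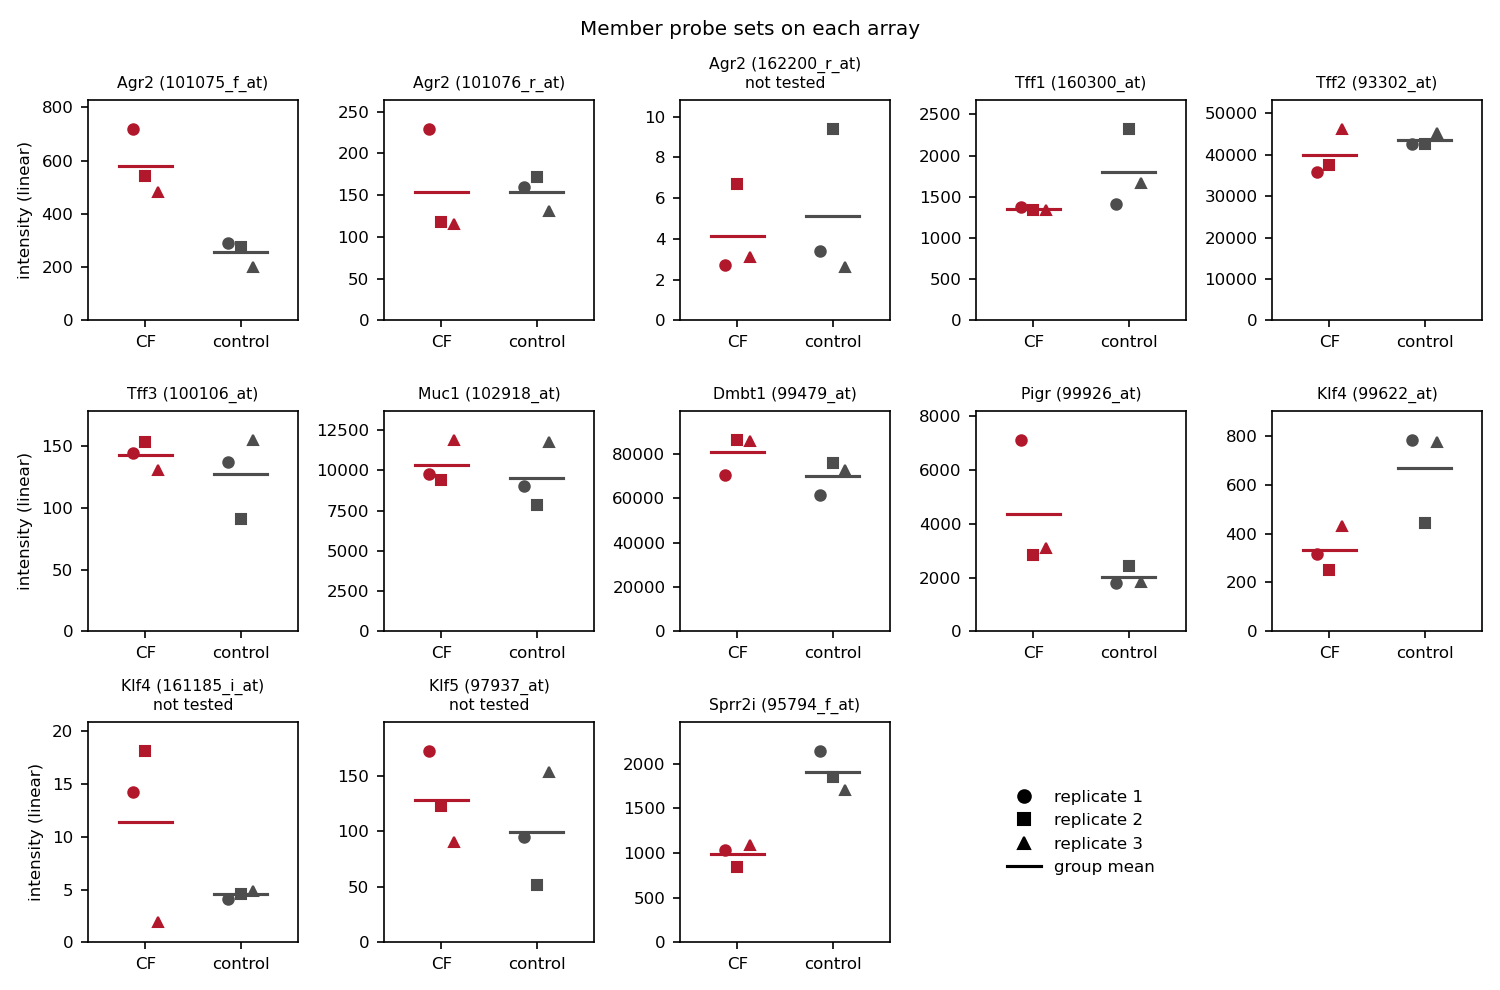
Intensity on a linear axis (each panel with its own scale from 0) of the 13 member probe sets on the 3 CF arrays (red, left) and the 3 control arrays (grey, right); symbols mark the replicate and bars the group mean. The groups are fully apart for 1 Agr2 probe set, Tff1, Pigr, Klf4 (99622_at) and Sprr2i, and the panels named as not tested were too dim for the fit.

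Agr2 encodes a disulfide isomerase of the endoplasmic reticulum that intestinal goblet cells of the mouse need to make the gel-forming mucin Muc2. The gene lies on chromosome 12 at 35992925 to 36004081 in GRCm38.p6, and the platform carries 3 probe sets for it. Probe set 101075_f_at measured 718.5, 541.7 and 482.5 in CF replicates 1, 2 and 3, against 291.7, 276.6 and 199.7 in control replicates 1, 2 and 3. All 3 CF mice were above all 3 control mice, and the lowest CF value exceeded the highest control value by more than the controls spread among themselves. The means were 581 ± 123 in CF and 256 ± 49.3 in controls (SD, n = 3 each), a 2.27-fold difference (log2 difference 1.18 ± 0.28 SE). Between mice of the same replicate number the log2 difference was 1.30, 0.97 and 1.27. On the same arrays 8 genes listed as markers of duct cells, an epithelium with mucous secretion, summed to 9203 to 10880 in CF and 6846 to 8172 in controls. Most of each sum came from 2 keratins, so it follows them more than the other markers. Krt18 measured 6069, 4477 and 5487 in CF, against 3326, 3363 and 3699 in controls. Krt8 measured 2052, 1777 and 2669 in CF, against 1952, 1702 and 2682 in controls. In 4 of the 8 markers, Elf3, Krt18, Cldn4 and Epcam, the groups were apart with CF higher, as in 7.37% of all probe sets tested. In the other 4, Krt8, Krt19, Car2 and Krt7, they overlapped. The markers were listed with earlier results of these data known, so nothing is read from this share. Neither the cell type behind these sums nor the part of duct cells in the Agr2 value was tested.

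A second probe set of the gene gave another picture. Probe set 101076_r_at measured 229.2, 118.3 and 115.1 in CF, against 160.3, 172.1 and 130.6 in controls. Only CF replicate 1 was above the controls and the groups overlapped, at a log2 difference of -0.07 ± 0.45 SE. The third probe set, 162200_r_at, read 2.7, 6.7 and 3.1 in CF and 3.4, 9.4 and 2.6 in controls, under the floor on all 6 arrays. The higher Agr2 value in CF thus rests on the brightest of the 3 probe sets, whose name ends in _f_at, the maker's mark for probes that may also match related sequences. CF replicate 1 was the highest array on both of the brighter probe sets.

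The 250 bases before the annotated start of Agr2 (chr12:35992675-35992924, plus strand, RefSeq, GRCm38.p6) are shown because Agr2 had the largest difference among the members. Here and below, capitals mark matches on either strand to the letters CACCC, a core bound by Krueppel-like factors. They also mark the E-box CACGTG, the TATA box TATAAA, the AP-1 element TGAGTCA and the octamer ATTTGCAT, again on either strand, and no matches overlapped in the windows shown. The table of promoters held 5 of the 10 member genes, Agr2, Muc1, Pigr, Klf4 and Sprr2i.
Agr2: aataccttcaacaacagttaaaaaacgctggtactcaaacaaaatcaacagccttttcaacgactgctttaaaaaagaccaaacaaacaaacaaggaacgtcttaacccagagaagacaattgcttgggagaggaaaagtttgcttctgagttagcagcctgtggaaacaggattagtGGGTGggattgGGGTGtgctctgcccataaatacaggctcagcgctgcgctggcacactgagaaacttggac
The window holds 2 matches to CACCC, both read on the other strand as GGGTG, starting 72 and 61 bases before the start, and no match to the other 4 motifs. Over 32851 promoter windows of the same length, 52% hold CACCC at least once.

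Genes that work beside Agr2 in oxidative folding were split in direction. Of 16 tested disulfide isomerases and redox proteins of the endoplasmic reticulum, 10 were higher and 6 lower, with a median difference of 0.13, and 0 passed limma's adjusted threshold in either direction, while 1 of 16 had an unadjusted p under 0.05 (6.25%, against 7.49% of the 5804 named genes tested with 1 probe set each). Dnajc10, a reductase of that compartment, measured 1844, 1270 and 1529 in CF, against 1247, 1032 and 1173 in controls (log2 difference 0.42 ± 0.19 SE). Manf, a stress-induced secreted protein, differed by 0.27 ± 0.15 SE, and in both genes the groups did not overlap. Ero1b, the oxidase abundant in pancreas and islets, was lower in CF without overlap, at 3808, 2962 and 3071 in CF, against 3941, 4943 and 4127 in controls (-0.41 ± 0.17 SE). The Ero1b probe set also ends in _f_at. Within this list, then, the members nearest to a difference pointed both ways.

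The 3 trefoil genes lie side by side on chromosome 17, with Tff3 at 31125306 to 31129611, Tff2 at 31141062 to 31144282 and Tff1 at 31161395 to 31165060. Tff1 and Tff2 are best known from the stomach and Tff3 from intestinal goblet cells, and Tff2, the spasmolytic polypeptide, was first isolated from pig pancreas. Tff1 measured 1375, 1334 and 1339 in CF, against 1416, 2324 and 1664 in controls. All 3 CF mice were below all 3 controls, but the highest CF value and the lowest control value were close. The means were 1350 ± 22.4 in CF and 1801 ± 469 in controls (SD, n = 3 each; log2 difference -0.39 ± 0.20 SE). That difference was -0.19 without control replicate 2, which held the highest value. On that array the 3'/5' ratio of Gapdh, which grows as RNA degrades, was 1.46, against 0.723 to 0.873 on the other 5. The Actb ratio did not single this array out, at 2.16, against 2.14 in CF replicate 2 and 1.74 to 1.94 on the remaining arrays, and the part of RNA quality in the Tff1 value was not tested.

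Tff2 was bright on every array and differed little. It measured 35824, 37534 and 46235 in CF, against 42635, 42672 and 45148 in controls. CF replicates 1 and 2 lay below the controls and CF replicate 3 above them, so the groups overlapped (log2 difference -0.13 ± 0.15 SE, 95% interval -0.47 to 0.21). Leaving out CF replicate 1 gave -0.06, leaving out CF replicate 3 gave -0.24, and quantile normalization gave -0.27. Tff3 was near the filter, with 3 of 6 arrays above it, at 144.7, 153.5 and 130.4 in CF, against 137, 90.9 and 155 in controls. Its groups overlapped at 0.20 ± 0.45 SE, and the difference was -0.03 without control replicate 2, 0.35 without control replicate 3 and 0.10 with array quality weights. Among the trefoil genes the interval of Tff2 excludes a doubling or halving of the measured value. At intensities as bright as those of Tff2, a change in RNA may be compressed. The interval of Tff3, -0.82 to 1.21, does not exclude a doubling.

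Muc1, the transmembrane mucin of the apical surface of epithelial cells, also differed little. It measured 9771, 9438 and 11893 in CF, against 9058, 7865 and 11747 in controls. The values of the groups interleave, and replicate 3 was the highest of its group in both. The log2 difference was 0.13 ± 0.18 SE (95% interval -0.29 to 0.55), and 0.11, 0.26 and 0.02 between mice of the same replicate number. It was close to 0 without control replicate 2 and with quantile normalization, 0.03 without CF replicate 3, 0.04 with array quality weights and 0.29 without control replicate 3.

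Dmbt1 encodes a large secreted glycoprotein built of scavenger receptor cysteine-rich domains, known in mouse pancreas as the granule protein muclin or CRP-ductin. It measured 70426, 86198 and 85906 in CF, against 61599, 75794 and 72518 in controls. The groups overlapped, and replicate 1 was the lowest of its group in both. The log2 difference was 0.21 ± 0.16 SE, and between mice of the same replicate number it was 0.19, 0.19 and 0.24, a narrow range. Without control replicate 1 the difference was 0.12. With the replicate number as a block the SE was 0.10 at the same difference. The values lay toward the array maxima, where a change may be compressed.

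Genes related to these proteins were measured as lists. Of 19 other mucin and mucin-like genes 11 were on the platform and 5 bright enough to test, of which 4 were lower in CF (median difference -0.28); limma called 0, and 2 of 5 had an unadjusted p under 0.05 (40%, against 7.49% of named genes), both lower. These were Cd164, a sialomucin of many cell types, at 1304, 1026 and 1857 in CF, against 1903, 2047 and 2304 in controls (-0.62 ± 0.23 SE), and Emcn, a sialomucin of endothelium, at 289.8, 157.6 and 293.6 in CF, against 446, 381.6 and 396.7 in controls (-0.78 ± 0.32 SE). Neither is a mucin of the epithelial gel. Mcam, a cell adhesion molecule, differed by -0.19 ± 0.30 SE, and Muc13, the only epithelial mucin of the list that could be tested, by 0.05 ± 0.25 SE on an _f_at probe set. Muc5ac, the gel-forming mucin of the stomach, read at most 24.8 in CF and 19 in controls.

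Among 17 tested genes of mucin glycosylation and export, 10 were higher and 7 lower (median difference 0.01), with 0 called by limma and 2 at an unadjusted p under 0.05 (11.8%, against 7.49% of named genes). St6galnac4, a sialyltransferase, measured 876.5, 1619 and 1424 in CF, against 529.1, 725.4 and 839.4 in controls (0.88 ± 0.28 SE), and its second probe set differed by 0.61 ± 0.43 SE. Galnt4, which adds the first sugar of mucin-type chains, measured 343.8, 372.4 and 327.6 in CF, against 195.4, 238.9 and 247.6 in controls (0.62 ± 0.27 SE), and by 0.44 ± 0.33 SE on its second probe set. Both genes were higher in all 3 CF mice on their brighter probe sets. St3gal4, another sialyltransferase, differed by -0.58 ± 0.29 SE. Of 12 tested genes of the goblet and mucous cell program 6 were higher and 6 lower (median difference 0.02), 0 were called and 0 had an unadjusted p under 0.05, with Xbp1, a regulator of secretory capacity, at 0.36 ± 0.21 SE, Creb3l1 at -0.37 ± 0.23 SE and Gfi1 at -0.63 ± 0.43 SE.

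Dmbt1's relatives with scavenger receptor cysteine-rich domains gave 7 tested genes, 4 higher and 3 lower, with 0 called by limma and 1 at an unadjusted p under 0.05 (14.3%, against 7.49% of named genes). Tmprss2, an epithelial membrane protease with such a domain, measured 348.8, 468.2 and 231.4 in CF, against 69.2, 131.2 and 203.4 in controls (log2 difference 1.45 ± 0.48 SE), with the groups apart. Cd5l, a macrophage protein, differed by -0.58 ± 0.38 SE and Prss12 by 0.67 ± 0.69 SE.

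Pigr encodes the receptor that carries polymeric IgA and IgM through epithelial cells and is released with them as secretory component. The gene lies on chromosome 1 at 130826684 to 130852249. It measured 7104, 2848 and 3098 in CF, against 1798, 2419 and 1825 in controls. All 3 CF mice were above all 3 controls, and CF replicate 1 was far above the other CF mice. The means were 4350 ± 2388 in CF and 2014 ± 351 in controls (SD, n = 3 each), and the difference was 1.99-fold (log2 difference 0.99 ± 0.33 SE). Without CF replicate 1 it was 0.58, so this mouse carries much of the difference. Between mice of the same replicate number it was 1.98, 0.24 and 0.76.

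The 250 bases before the annotated start of Pigr (chr1:130826434-130826683, plus strand, RefSeq, GRCm38.p6) are shown beside those of Agr2 because both were higher in CF.
Pigr: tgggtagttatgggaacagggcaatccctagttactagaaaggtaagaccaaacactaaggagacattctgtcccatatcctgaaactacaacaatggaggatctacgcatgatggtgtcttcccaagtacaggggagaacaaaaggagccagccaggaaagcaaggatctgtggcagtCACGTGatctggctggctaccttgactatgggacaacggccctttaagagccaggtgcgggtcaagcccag
This window holds an E-box, CACGTG, starting 71 bases before the start, and no match to the other 4 motifs. An E-box is found in 6.02% of the 32851 windows. No motif of those searched is common to the Agr2 and Pigr windows.

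The immunoglobulins that this receptor carries pointed the other way, with a wide spread. The joining chain Jchain measured 762.9, 225.7 and 134.5 in CF, against 1097, 360.2 and 550.3 in controls, and Igha, the IgA heavy chain, 603.1, 417.2 and 327.1 in CF, against 1196, 319.7 and 704.4 in controls. In both genes CF replicate 1, the mouse with the highest Pigr, was the highest of the CF mice, and the groups overlapped. The controls ran the other way: control replicate 2 had the highest Pigr of its group and the lowest Jchain and Igha. The 6 B and plasma cell markers summed to 2062 to 5415 in CF and 3777 to 9639 in controls. All 6 were lower in CF, as were 2925 of the 5804 named genes tested with 1 probe set each. The groups were apart in 1 of the 6 markers, Ms4a1, the B cell protein CD20, as in 5.62% of all probe sets tested with CF lower. These markers were also listed with earlier results of these data known, so nothing is read from these counts. How far their level bears on Pigr was not tested.

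Of 18 tested genes of antibody transport and of the signals known to induce Pigr, 9 were higher and 9 lower (median difference -0.04), with 0 called by limma and 2 at an unadjusted p under 0.05 (11.1%, against 7.49% of named genes). Rela, a subunit of NF-kappaB, measured 3046, 3516 and 4708 in CF, against 2542, 2872 and 2857 in controls (0.42 ± 0.19 SE), with no overlap. Il13ra1, a receptor chain for the type 2 interleukins, measured 321.5, 273.6 and 295 in CF, against 182.9, 43.4 and 234.6 in controls (1.22 ± 0.58 SE). Madcam1, the vessel address for gut-homing lymphocytes, was lower on its brighter probe set (-1.12 ± 0.44 SE) but not on its other one (0.17 ± 0.40 SE).

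Klf4 and Klf5 are zinc finger factors that act in opposite ways in the gut, where Klf4 marks cells that leave the cycle and is needed for goblet cells of the mouse colon, and Klf5 marks dividing crypt cells. Klf4, on chromosome 4 at 55527137 to 55532475, measured 314.5, 249.5 and 429.2 in CF, against 782.1, 444 and 772.9 in controls (probe set 99622_at). All 3 CF mice were below all 3 controls, though CF replicate 3 and control replicate 2 nearly met. The means were 331 ± 91.0 in CF and 666 ± 193 in controls (SD, n = 3 each), 2.00-fold lower in CF (log2 difference -0.998 ± 0.32 SE). Leaving out any 1 array gave -1.27 to -0.81, and mice of the same replicate number differed by -1.31, -0.83 and -0.85.

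The second Klf4 probe set, 161185_i_at, was under the floor on all arrays, at 14.2, 18.1 and 1.9 in CF and 4.1, 4.6 and 4.9 in controls. Klf5 was above the filter on 2 arrays only and was not tested. It read 172.1, 122.6 and 90.7 in CF and 94.6, 51.2 and 152.8 in controls, with overlapping groups. A change of Klf5 opposite to that of Klf4 can therefore neither be seen nor be set aside with these arrays.

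The promoter window of Klf4 (chr4:55532476-55532725, minus strand, RefSeq, GRCm38.p6, written 5′ to 3′ on the strand of the gene) is shown as that of the regulator among the members.
Klf4: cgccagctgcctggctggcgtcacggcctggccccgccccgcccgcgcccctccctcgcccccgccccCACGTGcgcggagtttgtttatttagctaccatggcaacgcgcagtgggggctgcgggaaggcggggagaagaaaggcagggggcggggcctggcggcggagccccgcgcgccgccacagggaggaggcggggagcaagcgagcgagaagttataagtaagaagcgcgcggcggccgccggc
It holds an E-box starting 182 bases before the start and no match to the other 4 motifs.

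A list of other Krueppel-like and Sp factors, which also took in Wt1 and Egr1, zinc finger factors outside those families, was split in direction. Of 11 tested, 5 were higher and 6 lower (median difference -0.07), 0 were called and 1 had an unadjusted p under 0.05 (9.09%, against 7.49% of named genes). That was Wt1, a zinc finger factor of mesothelium, at 145.3, 118.8 and 115.6 in CF, against 233.1, 254.2 and 225.1 in controls (-0.91 ± 0.36 SE), with no overlap. Klf10, a target of TGF-beta, differed by -0.27 ± 0.24 SE on its brighter probe set and by 0.26 ± 0.56 SE on its dimmer one, and Klf17 by -0.35 ± 0.37 SE. The levels of fat and B cell markers were lower in CF on the same arrays as Klf4: the 4 adipocyte markers summed to 3333 to 4689 in CF and 4647 to 10780 in controls, with overlapping groups in each of the 4 genes. Much of these sums was Lep, at 3231, 3032 and 2775 in CF, against 2878, 3941 and 3127 in controls (-0.13 ± 0.17 SE). Adipoq measured 720.9, 54.2 and 58.2 in CF, against 5591, 186.6 and 1899 in controls (-3.26 ± 1.30 SE). Retn differed by -1.94 ± 0.84 SE and Fabp4 by -0.82 ± 0.43 SE. Control replicate 2, which had the lowest Klf4 of the controls, also had the lowest of the control sums of adipocyte markers. Among the CF mice the order was not the same: replicate 3 had the highest Klf4 and the lowest sum of adipocyte markers. The part of fat or B cells in the Klf4 value was not tested.

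**Figure D2:**
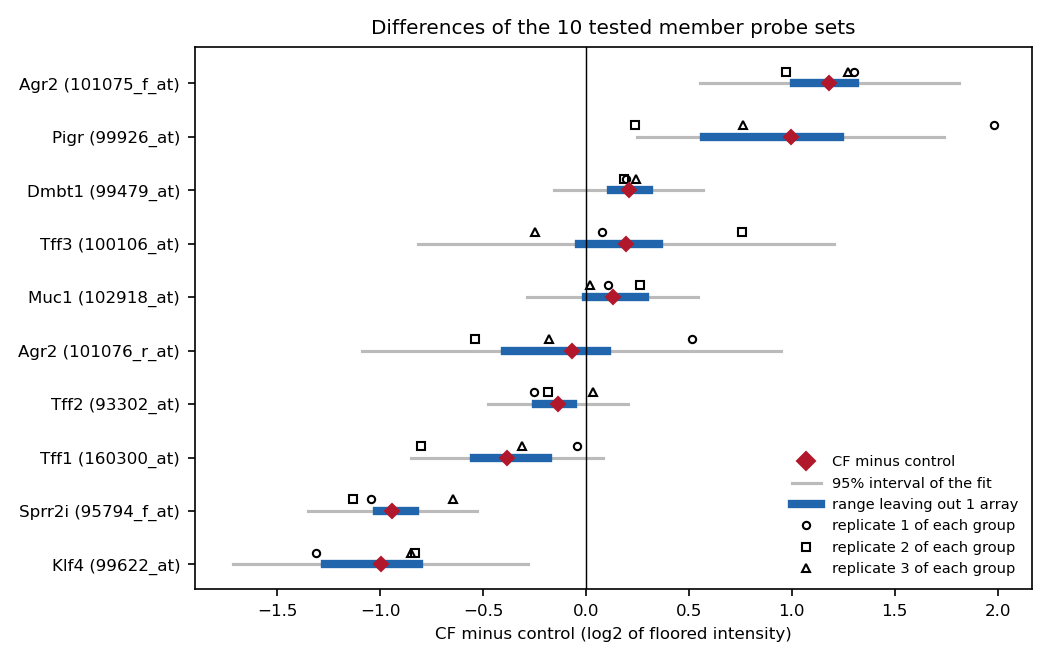
CF minus control on the log2 scale for the 10 tested member probe sets, with the 95% interval of the fit (grey), the range when any 1 array is left out (blue) and the difference between mice of the same replicate number (open symbols). The first Agr2 probe set and Pigr lie to the right of 0, Klf4 and Sprr2i to the left, and the 3 replicate numbers agree closely for Dmbt1 (0.19 to 0.24) and spread widely for Pigr (0.24 to 1.98).

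Sprr2i belongs to the small proline-rich proteins, which are cross-linked into the envelope of squamous cells and are also induced in mucosal epithelia under stress. It measured 1038, 846.2 and 1091 in CF, against 2143, 1856 and 1707 in controls. All 3 CF mice were well below all 3 controls, and the gap between the groups was larger than the spread within either. The means were 992 ± 129 in CF and 1902 ± 222 in controls (SD, n = 3 each), 1.92-fold lower in CF (log2 difference -0.94 ± 0.18 SE). Leaving out any 1 array gave -1.02 to -0.83, the tightest range of the 4 members whose groups were furthest apart. The Sprr2i probe set also bears the _f_at ending.

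Sprr2i sits in a row of near copies on chromosome 3, at 92407991 to 92409271, and 10 probe sets of 1 symbol each cover 8 genes and 2 pseudogenes of the row from Sprr2b to Sprr2k. The neighbours pointed both ways. Sprr2d was higher in CF, at 490.2, 579.1 and 279.3 in CF, against 105.4, 255.6 and 101 in controls (1.62 ± 0.46 SE, limma adjusted p = 0.424), with the groups just apart. Sprr2e was lower in CF, at 2315, 1373 and 1913 in CF, against 2485, 2341 and 2423 in controls (-0.40 ± 0.20 SE, limma adjusted p = 0.718), with CF replicate 1 close to the controls. The other 7 overlapped between the groups, with differences from -0.48 for the pseudogene Sprr2c-ps to 0.88 for Sprr2h. Over all probe sets tested the groups did not overlap in 13%, in either direction, and nothing is read from the count in this row. Of the 10 probe sets, 6 were higher in CF and 4 lower. How far each probe set reads RNA of the other copies was not measured, so the gene behind each value is uncertain.

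**Figure D3:**
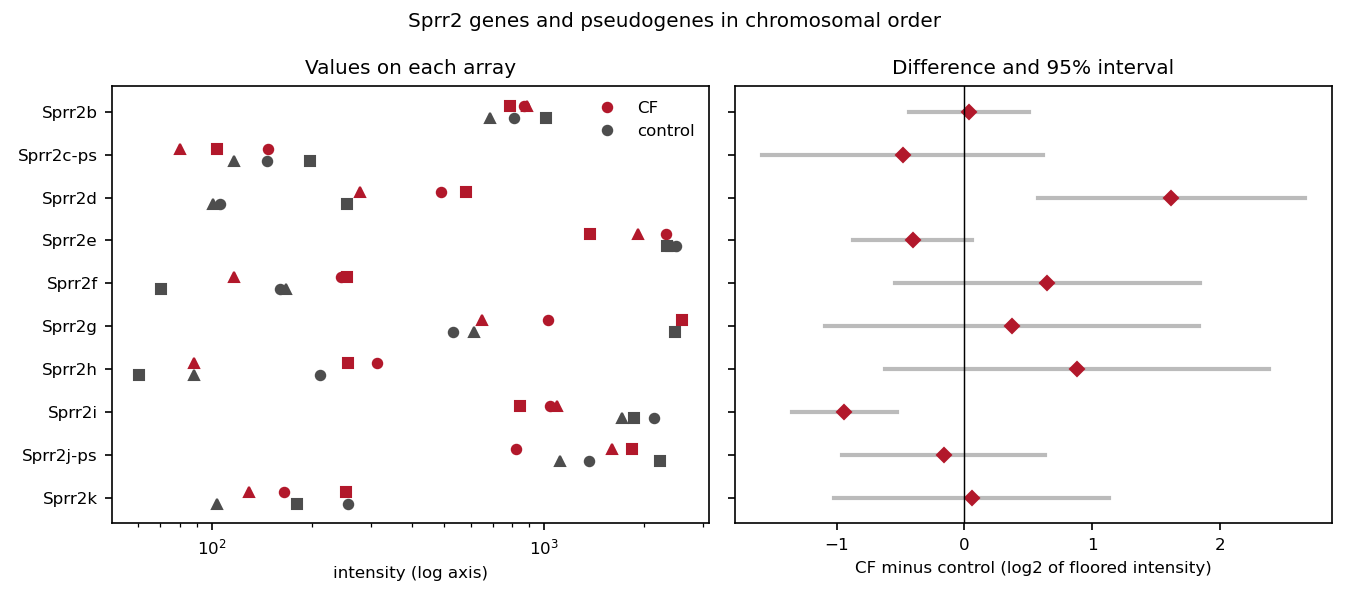
The 10 Sprr2 probe sets with 1 symbol, from top to bottom in the order of the genes along chromosome 3: left, intensity on each array (log axis; red CF above grey control, symbols circle, square and triangle for replicates 1, 2 and 3), right, CF minus control on the log2 scale with its 95% interval. Sprr2i lies at -0.94 and Sprr2d at 1.62, and the intervals of the other 8 include 0.

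The promoter windows of Sprr2i (chr3:92407741-92407990), Sprr2d (chr3:92338890-92339139) and Sprr2e (chr3:92351893-92352142), all on the plus strand in GRCm38.p6 and from RefSeq, are set side by side because these are the members of the row whose groups did not overlap.
Sprr2i: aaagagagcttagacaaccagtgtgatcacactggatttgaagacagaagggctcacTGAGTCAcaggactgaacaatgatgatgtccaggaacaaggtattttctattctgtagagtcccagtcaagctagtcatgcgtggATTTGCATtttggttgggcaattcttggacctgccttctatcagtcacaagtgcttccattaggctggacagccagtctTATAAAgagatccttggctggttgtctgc
Sprr2d: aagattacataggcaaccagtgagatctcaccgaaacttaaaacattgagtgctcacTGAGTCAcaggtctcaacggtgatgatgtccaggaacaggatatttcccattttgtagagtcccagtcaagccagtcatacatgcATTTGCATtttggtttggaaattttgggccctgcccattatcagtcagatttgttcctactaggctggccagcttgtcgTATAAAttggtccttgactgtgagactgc
Sprr2e: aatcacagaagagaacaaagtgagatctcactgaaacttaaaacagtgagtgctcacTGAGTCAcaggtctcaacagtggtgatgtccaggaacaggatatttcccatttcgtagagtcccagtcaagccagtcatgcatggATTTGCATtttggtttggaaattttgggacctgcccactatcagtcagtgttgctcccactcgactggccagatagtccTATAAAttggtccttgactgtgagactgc
All 3 hold TGAGTCA starting 193 bases, ATTTGCAT starting 108 bases and TATAAA starting 29 bases before the start. Aligned end to end, the windows of Sprr2d and Sprr2e were each identical to that of Sprr2i at 78.4% of its bases, beside 59.6% for the unrelated window of Agr2 in the same alignment. The table holds 10 windows of Sprr2 genes. Of these 10, the 7 from Sprr2b to Sprr2k each hold TATAAA as well as TGAGTCA and also ATTTGCAT, against 12.4%, 4.46% and 1.6% of all 32851 windows. The windows of Sprr2a1, Sprr2a2 and Sprr2a3 hold 0 of these motifs and were identical to that of Sprr2i at 58.4 to 59.2% of its bases, no more than the Agr2 window. The motifs were picked after the sequences were seen. By the symbols of their probe sets, Sprr2d had higher values in CF and Sprr2i and Sprr2e lower ones, but the gene behind each value is uncertain. The part of these motifs in the values was not tested.

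Beyond the row, 19 tested genes of small proline-rich and cornified envelope proteins, which include the neighbours above, split into 9 higher and 10 lower (median difference -0.01), with 0 called by limma and 1, Sprr2d, at an unadjusted p under 0.05 (5.26%, against 7.49% of named genes). Pkp1, a desmosomal plaque protein, differed by -0.42 ± 0.28 SE on an _f_at probe set. Markers of squamous epithelium were at similar sums in both groups, 4797 to 6148 in CF and 4538 to 7680 in controls over 9 genes. Most of each sum was Lor and Krt4. Lor measured 2665, 2968 and 2331 in CF, against 2395, 3303 and 2619 in controls. Krt4 measured 2056, 1911 and 976.4 in CF, against 1321, 2794 and 1046 in controls. Krt1, Trp63 and Krt13 were also bright enough to test, and the groups overlapped in all 5 tested genes. Among the dim markers, the basal keratin Krt14 was at most at 56.4 in CF and 79.4 in controls. The envelope protein Ivl was at most at 22.2 in CF and 38.6 in controls.

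Secreted antibacterial proteins and antiproteases, the chemical side of mucosal defence, gave 17 tested genes, 8 higher and 9 lower (median difference -0.03), with 0 called by limma and 2 at an unadjusted p under 0.05 (11.8%, against 7.49% of named genes). Ang, a ribonuclease with antimicrobial action, measured 5218, 4015 and 4461 in CF, against 2482, 2263 and 2894 in controls (log2 difference 0.84 ± 0.17 SE, limma adjusted p = 0.162). All 3 CF mice were well above all 3 controls. Hamp, the iron hormone hepcidin, measured 407.3, 271.9 and 1333 in CF, against 1372, 914.6 and 1377 in controls (-1.18 ± 0.51 SE), where CF replicate 3 lay among the controls. Lyz2, the lysozyme of macrophages, differed by -1.05 ± 0.92 SE. The Ang probe set is of the _f_at kind and may read related ribonucleases. Over all 10 related lists, which hold 135 tested genes, 68 were higher and 67 lower, and limma called 0, against 3 of the 5804 named genes (0.0517%).

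**Figure D4:**
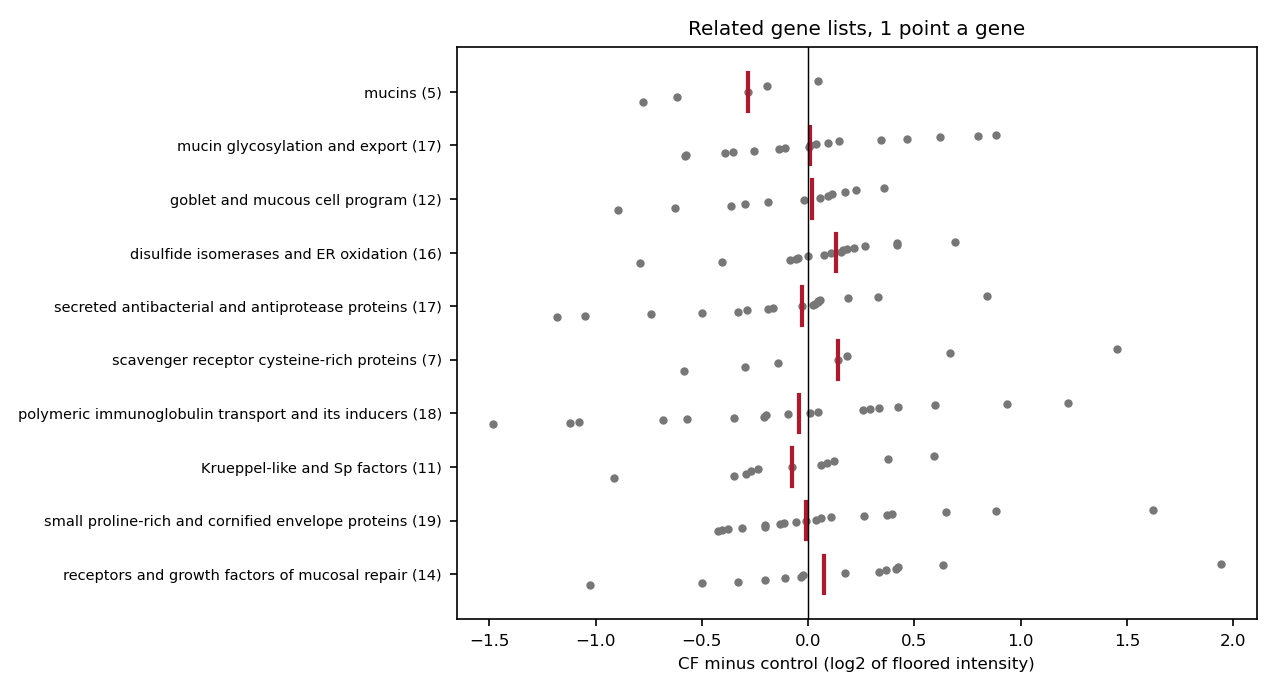
CF minus control on the log2 scale for the tested genes of 10 lists related to the members (1 point a gene, the probe set of highest mean; red bar, list median; number tested in brackets). The medians lie between -0.28 and 0.14, and each list holds genes on both sides of 0.

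Markers of other epithelia that express the members were compared on the same arrays. Of 8 duct markers on the platform 7 could be tested. Limma called 0 of them, and 4 had an unadjusted p under 0.05, all higher in CF (57.1%, against 7.49% of named genes). Elf3, an epithelial factor, measured 1578, 1723 and 1575 in CF, against 815.6, 919.7 and 842.8 in controls (0.92 ± 0.16 SE, limma adjusted p = 0.112), Krt18 differed by 0.62 ± 0.16 SE, Epcam, an adhesion molecule, by 0.66 ± 0.29 SE and Cldn4, a tight junction protein, by 1.58 ± 0.54 SE. The keratins Krt8 (0.04 ± 0.22 SE) and Krt19 (0.04 ± 0.34 SE) and the carbonic anhydrase Car2 (-0.09 ± 0.42 SE) did not go with them, and Krt7 was under the filter. Their part in the Pigr value was not tested either. The goblet markers summed to 62090 to 74730 in CF and 68660 to 89430 in controls over 7 genes, nearly all of it Zg16, which is also a zymogen granule protein of the pancreas. Of 2 Paneth cell markers on the platform, 0 passed the filter. Of 6 gastric markers 2 passed the filter, Atp4a (-0.15 ± 0.20 SE) and Chia1 (0.05 ± 0.40 SE), and of 11 intestinal markers only Anpep (-0.18 ± 0.23 SE), which pancreas also expresses. Among the dim intestinal markers, the structural protein Vil1 and the factor Cdx2 were under the floor on all arrays. The factor Cdx1, which was not tested, read 172.1, 202.6 and 87.7 in CF, against 69.5, 45 and 82.8 in controls. All CF mice were above all controls, but the lowest CF value and the highest control value were close. Cdx1 was singled out after its values were seen. In the other intestinal markers the groups overlapped, and those markers leaned both ways.

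For each member, the 3 named genes of 5795 with the most similar profile were taken by Pearson's r of log2 values over the 6 arrays, which share their group difference and array effects. Agr2 ran with Ezh1, Serpina1c and Lgals9 (r = 0.98 each), and Pigr with Mycl (0.97), Gabpb1 (0.95) and Zkscan5 (0.94). Klf4 ran with Sfr1, Oga and Cytip (0.99, 0.98 and 0.98) and Sprr2i with Psma5, Col6a2 and Wdr75 (0.98, 0.97 and 0.97). Tff1 ran with Pex14, Ctrb1 and Hbb-bh1 (0.98 to 0.99), Tff2 with Sqor, Pdlim1 and Mettl26 (0.98 to 0.99), Tff3 with Zfp598, Dido1 and Entpd7 (0.99 each), Muc1 with Ngrn, Kctd20 and Dcaf8 (0.98 to 0.99) and Dmbt1 with Tceal9, Dnajb3 and Skp1 (0.98 to 0.99). Over so few arrays and so many genes, an r this high is a description only.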

How the data were processed

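Per the labels, total RNA came from mouse pancreas by TRIzol. It was hybridised to 6 Affymetrix arrays, and the authors deposited 1 intensity per probe set and array on a linear scale. Software and scaling target were not given in the sources used here. Means trimmed by 2% at each end were 500.27 to 500.3 on all arrays, so the deposited intensity values were taken as already scaled and no scaling was added.

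Groups came from the genotype in the descriptions, and replicate numbers from the title suffixes. Probe sets were named through the 2016 platform annotation, with symbols updated to GRCm38.p6 by gene identifier (10855 with 1 symbol, 396 with several, 1237 with none). Values were floored at the pooled 20th percentile and log2 was taken, 66 control probe sets were left out, and the 7739 probe sets with at least 3 of 6 arrays above the pooled 40th percentile entered 1 fit in limma 3.58.1 (R 4.3.3; lmFit, eBayes with intensity trend, two-sided, Benjamini-Hochberg). Differences on the floored scale understate changes of dim genes. P-values rest on the spread between single mice.

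Members and lists were chosen with earlier results of these data known. Named genes were all member probe sets, the 3 genes of smallest p of each related list and the 3 closest profiles of each member; marker genes and further genes were named after their values were seen. After the group means were subtracted, arrays of the same suffix correlated at 0.231 to 0.264 and other arrays at -0.179 to -0.048, which decided that the suffix pairs the samples. Reported values are from the fit without that block, so their SEs and intervals also hold the spread shared by arrays of the same suffix. For Adipoq the SE was 1.303 without the block and 0.575 with it, and for Jchain 0.632 and 0.339. For Tff3 it was 0.445 in both fits, and for Madcam1 0.443 without the block and 0.489 with it. Alternatives were tried for the block, filter, floor, scaling, variance fit, array quality weights and threshold, and each array was left out in turn.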

Additional observations from a re-analysis of the deposited data

How the results depend on the processing

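Under the 17 alternative settings, each run by itself, 0 member probe sets and 0 genes of the related lists passed the threshold of that setting. The smallest adjusted p of a member was 0.175 with the replicate block and 0.0905, for Sprr2i, with array quality weights, at a threshold of 0.05; the list counts were made after seeing the data. Over all probe sets the number called by limma was 5 in the reported fit, 8 with each array divided by its median, 10 with the floor at the 40th percentile, 0 with no filter, 3 with no intensity trend, 12 with array quality weights, 10 with the replicate block, 17 at an adjusted p under 0.1, and 1 to 11 when 1 array was left out. Of 167 recomputed member differences 160 kept their sign. The 7 that did not belong to the second Agr2 probe set (-0.07 as reported; 0.073 with the floor at the 40th percentile, 0.008 with array quality weights, and -0.39 to 0.10 without 1 array), Tff3 (-0.032 to 0.35 without 1 array) and Muc1 (0 to 0.29 without 1 array). The other 7 member probe sets kept their direction under all 17, Agr2 at 1.01 to 1.31 and Pigr at 0.58 to 1.23 without 1 array. The causes were not tested. Signal limits Klf5, the dim probe sets of Agr2 and Klf4, and Tff3, all near or under the filter. At the bright end it limits Dmbt1 and may limit Tff2.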

Other observations

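Receptors and growth factors of mucosal repair, a list chosen with earlier results known, held 14 tested genes, 7 higher and 7 lower in CF (median difference 0.07), with 0 called by limma and 3 at an unadjusted p under 0.05 (21.4%, against 7.49% of the named genes tested). Socs3, a feedback inhibitor of cytokine receptors that signal through STAT3, measured 491, 348.2 and 467.6 in CF, against 129, 54.5 and 201 in controls (log2 difference 1.94 ± 0.49 SE, limma adjusted p = 0.295), with all CF mice above all controls. The Socs3 probe set is of the _f_at kind and may match related sequences. Erbb3, a receptor of the EGF receptor family, differed by 0.64 ± 0.25 SE. Fgfr2, an epithelial receptor for fibroblast growth factors, was lower, at 129.1, 300.2 and 258.4 in CF, against 436.5, 422.3 and 457.3 in controls (-1.02 ± 0.36 SE), with no overlap.

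Cblif, the gastric intrinsic factor that binds cobalamin, was singled out from the gastric markers after its values were seen. It missed the filter with 2 arrays above it and was not tested, and read 424.5, 185.2 and 130.2 in CF, against 55.9, 51 and 58 in controls, so that all 3 CF mice were above all 3 controls. The gastric hormone gene Gast, of which all mice carry 1 working allele, lay wholly the other way, at 92, 115.3 and 90.4 in CF, against 150, 171.7 and 122 in controls, and was not tested either. The other 4 gastric markers overlapped between the groups. CF replicate 1, the mouse with the highest Pigr and Agr2, had the highest Cblif.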
